A study of Mus musculus with 5 samples.

Results

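The genes described here are the collagens and 5 small leucine-rich proteoglycans, the main fibre-forming and network-forming proteins of the extracellular matrix and the proteoglycans that decorate them. They were picked by symbol, and the choice was made with earlier results of these data known. Every row named as a collagen chain (Col, a number, the letter a and a number) was taken, with the rows of Dcn, Lum, Bgn, Fmod and Ogn. This gave 46 of 17267 genes, of which 41 are collagen chains and 5 are small leucine-rich proteoglycans (SLRPs). The study sequenced single cells of lumbar dorsal root ganglia (DRG) from 5 untreated wild-type mice of the C57BL/6 strain, 3 males and 2 females aged 18 weeks. All cells therefore shared 1 genotype and 1 condition, and the comparisons below are between cell types. The authors had assigned 3352 cells to 14 types by clustering these counts, namely 12 sensory neuron types (3047 cells), satellite glia (249 cells) and endothelial cells (56 cells). Cell names carry 5 library identifiers, which were numbered 1 to 5 and taken as 1 mouse each, with no label that ties an identifier to a mouse.

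Collagens are trimers that cells assemble in the endoplasmic reticulum and secrete. Fibrillar collagens build banded fibres, type IV collagen builds the sheet of the basement membrane, and FACIT collagens bind the surface of fibres. Multiplexins and type IV collagen lie in basement membranes, whereas transmembrane collagens stay anchored in the cell surface. SLRPs such as decorin bind collagen fibres and set their spacing. In a sensory ganglion each neuron soma is wrapped by satellite glia behind a basement membrane, and capillaries carry a basement membrane of their own. The ganglia were dissociated with collagenase and trypsin, so the matrix itself was removed and the RNA of the chains is what was measured.

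Levels are given in CPM, the unique molecular identifiers (UMIs) of a gene in every 1000000 UMIs of the cells of a type in a library, as the mean ± SD over the 5 libraries (n = 5). The libraries held 164 to 1370 cells and 13050375 to 88886919 UMIs, and 7 barcodes occurred in cells of 2 libraries. Cells were unequally deep, with a median of 17729 UMIs in satellite glia, 16889 in endothelial cells and 62779 in neurons. The 8 endothelial markers summed to 8292 CPM in the endothelial cells, 35.2 in satellite glia and 53.5 in neurons. The 8 satellite glia markers summed to 90843 CPM in satellite glia and 287 in neurons. In endothelial cells these glial markers reached 5732.5 CPM, with 1716 to 15328 over libraries. Each list was thus highest in its own type, but glial markers were not rare in endothelial cells. Of 6 markers of myelinating Schwann cells, all 6 were detected in the satellite glia, with a sum of 1121 to 2084 CPM over libraries. The mean of this sum was 1524 CPM there, 556 in all neurons and 1743 in Th neurons. The 4 markers of non-myelinating Schwann cells summed to a mean of 483 CPM in satellite glia and 694 in neurons. In satellite glia 6 macrophage markers summed to at most 5.78 CPM. Free RNA was gauged from the glial transcript Apoe, which reached 0.0518% to 0.677% of its glial level in the neuron types and 5.03% in the endothelial cells. All p-values below come from edgeR's quasi-likelihood test on sums per library and are adjusted by the Benjamini-Hochberg method over all genes tested, and a gene was called at an adjusted p under 0.01 with at least a 2-fold difference. The types had been made from the same counts, so these p-values set a difference against the spread between libraries and are no independent evidence for a type.

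Type IV collagen genes lie head to head in pairs, and the pairs peaked in different cell types. The starts that set the promoter windows overlap by 22 bases for Col4a1 (minus strand) and Col4a2 (plus strand) on mouse chromosome 8. On chromosome 1 those of Col4a4 (minus strand) and Col4a3 (plus strand) lie 71 bases apart. The gene spans given further below end later for Col4a1 (chr8:11312889) and Col4a4 (chr1:82587034). By those spans both pairs overlap, and part of each 250-base window lies inside the minus-strand gene. The 250 bases before the start of the minus-strand gene of each pair are shown because the partner gene starts within or next to them. They are from RefSeq on build GRCm38.p6, written 5′ to 3′ on the minus strand, for chr8:11312827-11313076 and chr1:82586850-82587099. Capitals mark the CCAAT letters, here on the opposite strand, in the first sequence and the 71 bases between the starts in the second.
Col4a1: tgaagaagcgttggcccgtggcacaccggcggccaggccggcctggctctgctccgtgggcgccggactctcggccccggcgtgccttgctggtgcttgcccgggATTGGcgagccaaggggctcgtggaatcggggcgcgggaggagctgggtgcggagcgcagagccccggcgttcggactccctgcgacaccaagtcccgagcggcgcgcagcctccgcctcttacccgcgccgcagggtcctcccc
Col4a4: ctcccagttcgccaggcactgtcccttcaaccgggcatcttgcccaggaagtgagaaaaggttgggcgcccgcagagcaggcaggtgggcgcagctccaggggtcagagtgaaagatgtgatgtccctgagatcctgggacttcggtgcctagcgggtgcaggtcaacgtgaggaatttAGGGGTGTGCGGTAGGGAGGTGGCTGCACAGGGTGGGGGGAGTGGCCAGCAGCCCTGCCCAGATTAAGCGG
In a window from 250 bases before to 50 after the start, the Col4a1 promoter held CCAAT and the GC box GGGCGG, both of which were searched on both strands. CCAAT occurred in 37.39% and GGGCGG in 35.63% of all 32817 promoters of that length. The Col4a4 window held neither, and TATAAA, found in 13.62% of promoters, was in neither window.

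Of the 46 genes, 26 had their highest mean level in satellite glia, 5 in endothelial cells and 15 in a neuron type. The UMIs were few for many of them, as 20 genes had under 100 UMIs over all cells and 6 had under 20. Among the 24 genes that reached a mean of 10 CPM in some type, 17 peaked in satellite glia, 4 in endothelial cells and 3 in neurons. Summed over all 46 genes the level was 1287 ± 467 CPM in satellite glia, 872 ± 293 CPM in endothelial cells and 77.0 ± 36.8 CPM in the sum of all neurons. Dcn, which encodes decorin, held much of this, and without it the sums were 1076 ± 224, 683 ± 130 and 34.3 ± 11.02 CPM. The make-up also differed, with fibrillar chains at 399 ± 126 CPM in satellite glia and 51.5 ± 20.05 CPM in endothelial cells, and network-forming chains at 209 ± 54.7 and 438 ± 118 CPM. Among neuron types the sum without Dcn ran from 6.43 ± 3.69 CPM in Th neurons and 10.3 ± 4.55 CPM in NP_Mrgpra3 neurons to 73.3 ± 11.9 CPM in NP_Nts and 84.5 ± 23.6 CPM in PEP2_Htr3a.Sema5a neurons.

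**Figure D1:**
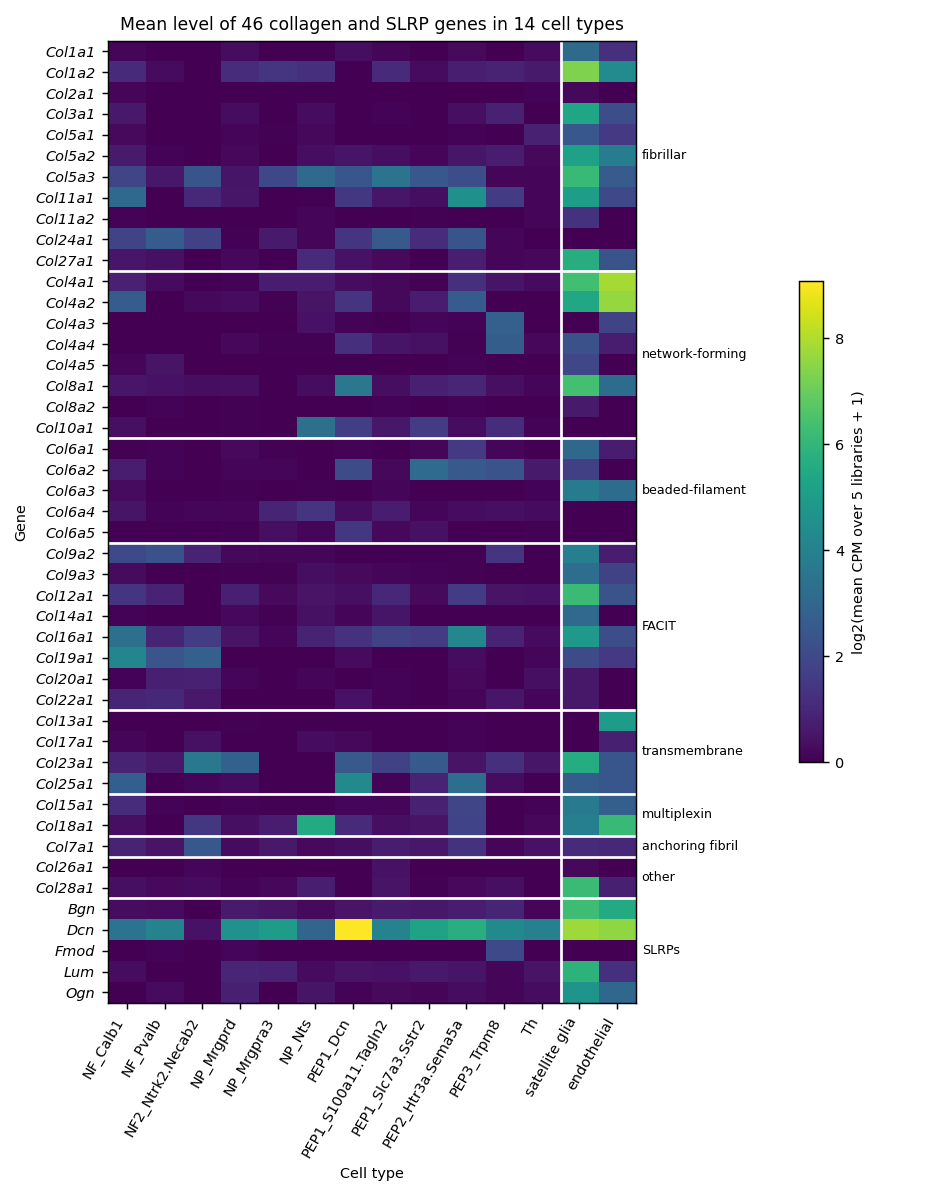
Mean level of each of the 46 genes in the 14 types, as log2 of the mean CPM over 5 libraries plus 1, with genes in rows by collagen class and types in columns. The glial and endothelial columns on the right are the brightest for most rows, Dcn stands out in PEP1_Dcn neurons, and single bright cells among the neuron columns mark genes such as Col18a1 in NP_Nts and Col19a1 in NF_Calb1.

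Satellite glia carried far more collagen and SLRP transcripts than neurons. The comparison used the sum of satellite glia and the sum of all neurons in each library, 28 of the 46 genes passed the filter on low counts, and 25 of these were called higher in satellite glia. Over all 12109 genes tested, 21.6% were called higher and 32.6% lower. The median log2 fold change was 6.50 over the 28 genes and -0.35 over all genes tested. No member was called lower in edgeR, none had a lower level at an unadjusted p under 0.05, and DESeq2 called 26 higher and 0 lower. Genes scarce in neurons passed the filter through their glial counts, so the counts describe the members and the other 18 were not tested.

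Among the fibrillar chains, 7 of 7 tested were called higher in satellite glia. Col1a2 (chr6:4505618-4541543), a chain of type I collagen, was at 136, 175, 125, 134 and 219 CPM in the satellite glia of libraries 1 to 5. It did not exceed 1.97 CPM in the neurons of any library, so the groups were far apart, with a log2 fold change of 7.61 ± 0.32 (SE, adjusted p = 4.37e-13). The 677 UMIs of Col1a2 fell in 211 of the 249 satellite glia. Its partner Col1a1, which forms the same trimer, had only 22 UMIs, in 10 of these cells. Its level was 0, 3.56, 2.08 and 3.96 CPM in libraries 1 to 4 and 28.9 CPM in library 5. The UMI ratio of Col1a2 to Col1a1 was thus 30.8 in satellite glia, 9 in endothelial cells (18 and 2 UMIs) and 6.85 in neurons (185 and 27 UMIs). The glial ratio ran from 33.8 to 60.3 in libraries 2 to 4, where library 1 had no Col1a1, but was 7.60 in library 5 beside 7.78 in the neurons of that library. It was 50.1 without library 5. UMIs were counted from transcript 3′ ends and were not scaled to length, and since capture can differ between genes only the change of such a ratio between types is described.

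Type V chains were also unequal. Col5a3 was at 65.6 to 78.3 CPM in the glia of the 5 libraries, with a mean of 68.9 ± 5.40 CPM, and was higher than in neurons by 4.96 ± 0.18 on the log2 scale (adjusted p = 5.76e-14). Col5a2 was at 35.5 ± 9.17 CPM and Col5a1 at 4.57 ± 1.85 CPM, with log2 fold changes of 7.46 ± 0.35 and 5.45 ± 0.57. The UMI ratio of Col5a2 to Col5a1 was 8.50 ± 2.85 over libraries. The remaining fibrillar chains called higher in glia were Col27a1 at 49.9 ± 14.97 CPM (log2 fold change 7.502 ± 0.34), Col11a1 at 32.9 ± 17.1 CPM (3.63 ± 0.46) and Col3a1, which encodes type III collagen. Col3a1 was at 12.6, 29.4, 15.3, 10.3 and 133 CPM in libraries 1 to 5, so library 5 alone set its mean, and 44.5% of its 119 UMIs lay in 5 cells. Its log2 fold change was 7.30 ± 0.63 (adjusted p = 8.06e-09).

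The basement membrane chains were higher in satellite glia as well. Col4a1 (chr8:11198423-11312889) and Col4a2 (chr8:11312805-11449287), the chains of the common type IV trimer, were at 75.7, 108, 68.6, 68.1 and 72.2 CPM and at 42.9, 51.6, 31.9, 38.0 and 46.2 CPM in the glia of libraries 1 to 5. The highest values in the summed neurons of a library were 0.582 CPM for Col4a1 and 2.11 CPM for Col4a2. The log2 fold changes were 8.02 ± 0.28 (adjusted p = 3.53e-14) and 5.39 ± 0.33 (adjusted p = 7.00e-11). Col4a4 (3.72 ± 1.82 CPM) and Col4a5 (2.82 ± 0.46 CPM), chains of the rarer type IV trimers, were called on 16 and 13 UMIs with log2 fold changes of 3.85 ± 0.49 and 7.03 ± 0.75. Col8a1, a short-chain network collagen, varied more between libraries, at 116, 119, 70.7, 44.3 and 57.8 CPM. In each it stayed above its highest value in the summed neurons of a library, 2.08 CPM. Its log2 fold change was 6.69 ± 0.46. Col15a1, a multiplexin, was at 12.3 ± 7.15 CPM with a log2 fold change of 5.09 ± 0.42, whereas its relative Col18a1 was at 14.2 ± 11.4 CPM and was not called (1.47 ± 0.50, adjusted p = 0.0125).

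Of the FACIT collagens, 5 of 6 tested were called higher in satellite glia. Col12a1 led them with 60.5, 85.5, 95.7, 59.4 and 54.9 CPM in libraries 1 to 5 against at most 1.67 CPM in the summed neurons (log2 fold change 6.96 ± 0.33, adjusted p = 2.42e-12). Col16a1 (28.2 ± 11.9 CPM, 3.49 ± 0.30), Col9a2 (13.8 ± 3.06 CPM, 4.99 ± 0.33), Col9a3 (8.78 ± 2.80 CPM, 6.61 ± 0.39) and Col14a1 (7.68 ± 4.50 CPM, 6.90 ± 0.59) followed. Col19a1 was not called (3.36 ± 1.25 CPM, 1.35 ± 0.48, adjusted p = 0.0169). Col28a1 (chr6:7997100-8193709), a collagen of peripheral nerve glia, varied little between libraries. It was at 78.2, 72.1, 66.6, 72.8 and 69.3 CPM in libraries 1 to 5, and its values in the summed neurons lay between 0.0678 and 0.267 CPM. Its log2 fold change of 9.04 ± 0.24 (adjusted p = 1.90e-15) was the highest of the members tested here.

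Among the other classes, the transmembrane chain Col23a1 was at 27.7, 73.0, 37.4, 51.5 and 52.0 CPM in the glia of libraries 1 to 5, with a log2 fold change of 3.96 ± 0.22 (adjusted p = 2.02e-11). Col25a1, the transmembrane chain also known as the precursor of an amyloid plaque component, was not called (5.39 ± 4.36 CPM, 1.49 ± 0.65, adjusted p = 0.0445). Of the beaded-filament chains of type VI collagen only Col6a3 was tested, at 12.8 ± 8.12 CPM with a log2 fold change of 8.32 ± 0.52. Col6a1 and Col6a2, which join it in the usual trimer, had 14 and 4 UMIs in satellite glia. Col24a1, Col10a1, Col4a3, Col6a4, Col6a5, Col13a1, Col17a1 and Fmod had 0 UMIs in satellite glia, which at 3 counts allows a level of up to 0.656 CPM.

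Lum, Bgn, Ogn and Dcn were the 4 SLRPs tested, and all 4 were called higher in satellite glia. Lum, which encodes lumican, was at 45.4, 47.2, 49.9, 87.1 and 54.9 CPM in libraries 1 to 5 and Bgn, which encodes biglycan, at 60.5, 76.6, 49.9, 65.7 and 124 CPM. Their highest values in the summed neurons of a library were 1.00 and 0.928 CPM, and the log2 fold changes were 6.91 ± 0.32 and 7.74 ± 0.35. Ogn, which encodes osteoglycin, was at 25.2 ± 9.12 CPM (6.39 ± 0.45). Dcn did not share this evenness. Its glial level was 2.52, 150, 3.47, 220 and 679 CPM in libraries 1 to 5, which overlapped the 11.9 to 82.3 CPM of the neurons. Its log2 fold change was 2.28 ± 0.71 (adjusted p = 0.00783), and the call was lost without library 2 (2.42), library 4 (2.15) or library 5 (1.43), without cells with mural markers (1.49) and under DESeq2 (2.40).

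The Dcn transcripts of the satellite glia sat in very few cells. Of 688 UMIs, 678 lay in 5 cells, and 678 lay in the 8 glia that had UMIs of at least 2 of 7 fibroblast markers (Pdgfra, Mfap5, Clec3b, Pi16, Fbln1, Fbln2 and Lox). Without these 8 cells Dcn was at 2.34 ± 1.34 CPM in satellite glia, and the log2 fold change against neurons turned to -3.85 ± 0.72 (adjusted p = 9.50e-05). The same 8 cells held 16 of 22 UMIs of Col1a1 and all 14 of Col6a1, but 69 of 677 UMIs of Col1a2 (a ratio of 101 without them), 42 of 119 of Col3a1, 33 of 272 of Lum and 7 of 324 of Col28a1. Without them Col1a2 remained at 133 ± 27.6 CPM, Lum at 53.2 ± 7.71 CPM and Bgn at 68.4 ± 17.9 CPM. In the whole type 5 of the 7 markers were detected, with a sum of 407 to 589 CPM over libraries. Fbln2 made up nearly all of it, at 450 ± 83.2 CPM in 247 of 249 cells. Pi16 and Lox had 0 UMIs, Pdgfra, Clec3b and Fbln1 were each found in 1 cell, and Mfap5 was found in 7 cells. What these cells were was not tested.

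**Figure D2:**
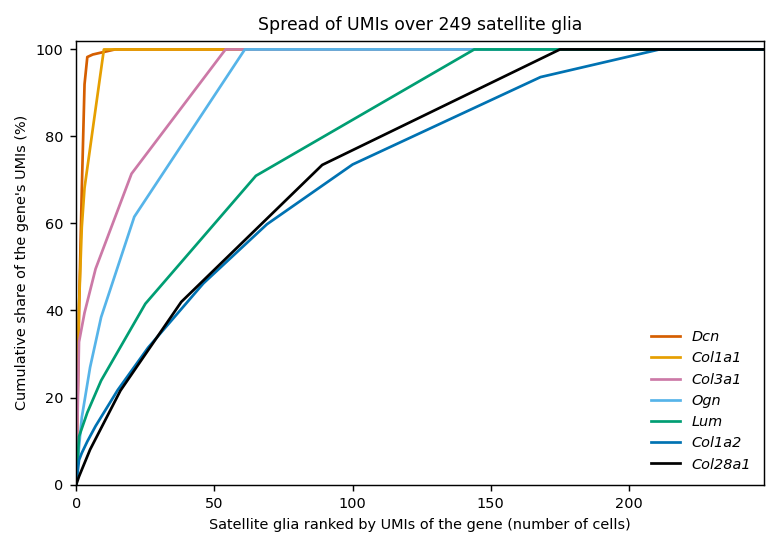
Cumulative share in percent of the UMIs of 7 genes (y axis) over the 249 satellite glia ranked by their UMIs of that gene (x axis, number of cells). The curves of Dcn and Col1a1 reach the top within 14 and 10 cells, whereas Col1a2 is spread over 211 cells and Col28a1 over 175.

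Endothelial cells were richest in the chains of vascular basement membrane. Against neurons, 13 of the 46 genes were tested and 6 were called higher, namely Col4a1, Col4a2, Col13a1, Col18a1, Bgn and Col1a2. Over all 11683 genes tested, 14.9% were called higher and 43.9% lower, and the median log2 fold change was 2.89 over the members and -1.25 over all genes. No member was called lower, none was lower at an unadjusted p under 0.05, and DESeq2 called 7 higher and 0 lower. With 3 to 16 endothelial cells in a library and 941065 UMIs in all, a gene with no UMI could still have been at 3.19 CPM. The filter on low counts left out 33 members, some of which had UMIs in endothelial cells.

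Col4a1 was at 309, 314, 181, 189 and 157 CPM and Col4a2 at 292, 199, 137, 164 and 194 CPM in the endothelial cells of libraries 1 to 5. Every one of these values lay above all values of satellite glia and neurons. Each of the 2 genes was found in 51 of 56 cells and both in 47. The log2 fold changes against neurons were 9.01 ± 0.31 (adjusted p = 4.62e-15) for Col4a1 and 7.01 ± 0.34 (adjusted p = 5.99e-13) for Col4a2. After thinning every cell to 10000 UMIs, Col4a1 was found in 82.1% of endothelial cells, 49.8% of satellite glia and 0.361% of neurons, against 91.1%, 68.7% and 2.17% at full depth.

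Col18a1 (chr10:77052178-77166530), whose product releases endostatin, was at 85.8, 89.3, 62.8, 94.3 and 18.5 CPM in the endothelial cells of libraries 1 to 5 and higher than in neurons by 3.49 ± 0.47 (adjusted p = 1.75e-06). Col13a1 (chr10:61838234-61979206), a transmembrane collagen, was at 34.3, 43.0, 36.9, 29.8 and 9.24 CPM. It was nearly restricted to this type, with 32 UMIs in 23 of 56 endothelial cells, 0 UMIs in satellite glia and 4 UMIs in neurons. Its pooled CPM was at least 51.8-fold higher than in satellite glia, taking 3 UMIs over the group as the floor, and 1862 times that of neurons (exact 95% interval 660 to 7248, which covers counting error only). The fitted log2 fold change against neurons was 10.04 ± 0.60 (adjusted p = 1.52e-11).

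Bgn and Col1a2 in endothelial cells lay mostly in cells with markers of mural cells, the pericytes and smooth muscle cells on vessels. Bgn was at 17.2, 26.5, 36.9, 9.93 and 139 CPM (log2 fold change against neurons 6.36 ± 0.70) and Col1a2 at 34.3, 23.2, 22.2, 9.93 and 9.24 CPM (4.06 ± 0.72, adjusted p = 5.03e-05). Of 9 mural markers 8 were detected in the endothelial cells, with a sum of 154 to 772 CPM over libraries. Rgs5 reached 113 ± 82.8 CPM and Kcnj8 101 ± 116 CPM, and Cspg4 was at 0. The 17 cells with at least 3 of these markers held 16 of 18 UMIs of Col1a2 and 22 of 36 of Bgn, but 78 of 217 of Col4a1, 65 of 168 of Col4a2 and 20 of 70 of Col18a1. Without them Col4a1 stayed at 224 ± 60.6 CPM and Col4a2 at 176 ± 37.3 CPM, and Col18a1 was called as before (3.97 ± 0.54). Then only 7 members were tested, and Col13a1 (25.9 ± 19.3 CPM), Bgn (29.6 ± 62.8 CPM) and Col1a2 (2.19 ± 3.03 CPM) were not among them, so 3 members were called higher in place of 6. Dcn had 229 UMIs in 3 endothelial cells, 210 of them in 1 cell of library 3, and was not called (2.04 ± 0.71, adjusted p = 0.0152), though it was called without library 1, 2, 4 or 5, at 2.36 to 2.55. The part of mural cells in these levels was not tested.

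**Figure D3:**
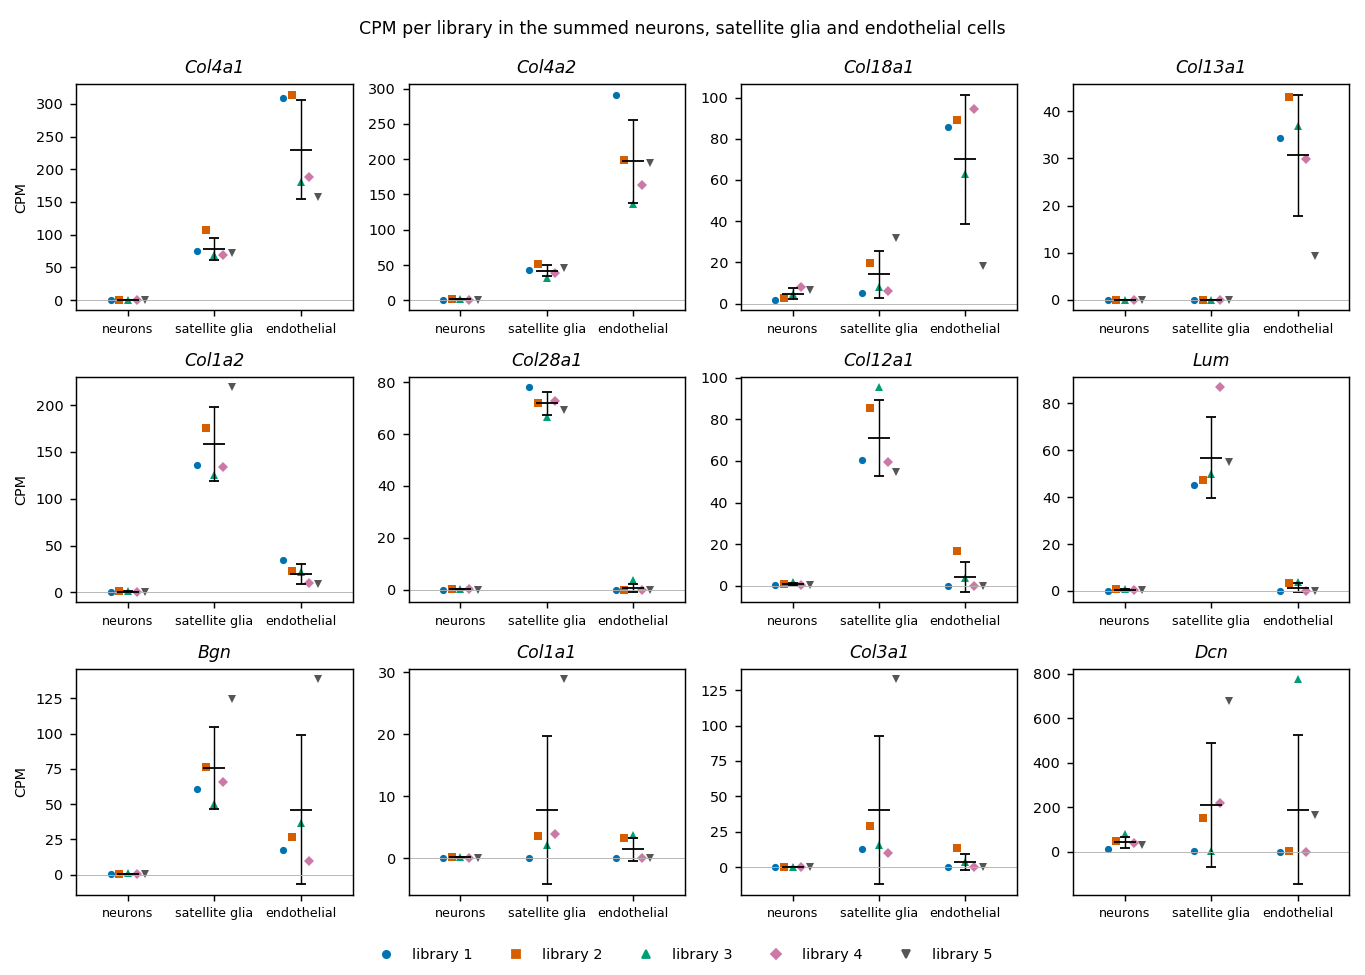
CPM of 12 genes in the summed neurons, the satellite glia and the endothelial cells of each library, with 1 point per library and black bars for the mean ± SD of the 5 libraries. Col4a1, Col4a2 and Col13a1 are highest in endothelial cells in every library, Col28a1, Col12a1, Lum and Col1a2 are highest in satellite glia in every library, and the means of Col1a1, Col3a1 and Dcn rest on 1 or a few high libraries.

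Endothelial cells and satellite glia were also compared directly. Of 12 members tested, 3 were called higher in endothelial cells and 7 higher in satellite glia, while 21.5% of all 4046 genes tested were called higher and 22.3% lower in endothelial cells. The 25% of members called higher was thus near the share of all genes. The median log2 fold change was -2.78 over the members and -0.05 over all genes, and 3 of the 5 libraries had at least 10 endothelial cells. Higher in endothelial cells were Col18a1 (2.70 ± 0.42, adjusted p = 2.25e-05), Col4a2 (2.30 ± 0.21, adjusted p = 3.39e-08) and Col4a1 (1.67 ± 0.23, adjusted p = 4.43e-06). Lower in endothelial cells were Col28a1 (-5.66 ± 0.52), Lum (-4.49 ± 0.58), Col5a3 (-3.80 ± 0.48), Col12a1 (-3.34 ± 0.51), Col8a1 (-3.05 ± 0.52), Col1a2 (-2.85 ± 0.30) and Col27a1 (-2.72 ± 0.55), with adjusted p-values from 4.32e-08 to 0.000322. Bgn (-0.69 ± 0.43, adjusted p = 0.168), which was called without library 5 (-1.19), and Dcn (0.33 ± 1.03, adjusted p = 0.799) were not called. For Col28a1, 324 UMIs in satellite glia stood against 1 in endothelial cells, a ratio of pooled CPM of 66.7 (exact 95% interval 11.9 to 2642).

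The balance of the type IV chains also differed between cell types. The UMI ratio of Col4a1 to Col4a2 was 1.87 ± 0.24 over the 5 libraries in satellite glia, 1.19 ± 0.29 in endothelial cells and 0.298 ± 0.117 in neurons. Within the neurons it was 0.136 ± 0.134 in NF_Calb1 and 0.267 ± 0.136 in PEP2_Htr3a.Sema5a neurons, where 77 and 88 UMIs of Col4a2 stood beside 14 and 23 of Col4a1. These neuronal levels of Col4a2 were 12.3% and 12.1% of the glial level, while Apoe stood at 0.191% and 0.338% of its glial level in the same types. The part of free RNA in the neuronal levels was not tested.

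The neuron types were compared each with the sum of all other neurons in the same library. NF types are large neurofilament-rich neurons, NP types are non-peptidergic and PEP types are peptidergic nociceptors or thermoreceptors, and Th marks low-threshold mechanoreceptors of unmyelinated fibres. The annotation spells the first type NF_Ca1b1, written NF_Calb1 here, and the types NF2_Ntrk2.Necab2, PEP1_S100a11.Tagln2, PEP1_Slc7a3.Sstr2 and PEP2_Htr3a.Sema5a are shortened below to NF2, PEP1_S100a11, PEP1_Slc7a3 and PEP2. Over the 12 types 108 pairs of member and type were tested, and 30 were called higher, for 16 members in 10 types. The members called higher were 6 of 12 tested in NF_Calb1 (15% of all genes tested there), 2 of 9 in NF_Pvalb (13.9%), 3 of 8 in NF2 (7.75%), 1 of 14 in NP_Mrgprd (5.97%) and 3 of 7 in NP_Nts (6.51%). They were 4 of 11 in PEP1_Dcn with Dcn itself, which the count of 30 leaves out (7.66%), 2 of 7 in PEP1_S100a11 (4.76%), 1 of 9 in PEP1_Slc7a3 (7.77%), 6 of 11 in PEP2 (9.08%) and 3 of 9 in PEP3_Trpm8 (8.02%). None of 6 was called higher in NP_Mrgpra3 (2.97%) and none of 6 in Th (7.34%), where none had a higher level at an unadjusted p under 0.05 and DESeq2 also called 0. Called lower were 3 of 12 in NF_Calb1 (14.7% of all genes), 4 of 9 in NF_Pvalb (16.4%), 1 of 8 in NF2 (12.8%), 10 of 14 in NP_Mrgprd (19.7%), 2 of 6 in NP_Mrgpra3 (10.8%) and 4 of 7 in NP_Nts (17%). The lower calls in the other types were 1 of 7 in PEP1_S100a11 (7.75%), 2 of 9 in PEP1_Slc7a3 (11.2%), 1 of 11 in PEP2 (9.41%), 2 of 9 in PEP3_Trpm8 (10.9%) and 5 of 6 in Th (12.4%). None of 11 was lower in PEP1_Dcn (7.64%) in edgeR, where 1 was lower at an unadjusted p under 0.05 and DESeq2 called 0. The 35 lower calls in all became 54 without library 1. A gene high in 1 neuron type was in the reference of the others, so a lower call can mirror that type. Of the 35, 4 were of SLRPs, and Dcn was lower in NF_Calb1, NF_Pvalb, NF2 and NP_Nts. Their references held the 5002 Dcn UMIs of PEP1_Dcn, although Dcn in PEP1_Dcn was left out of the 30. Multiplexin chains gave 7 lower calls in 12 tests, and 1135 of the 1384 UMIs of Col18a1 lay in NP_Nts. NP_Mrgprd neurons gave 92245664 of the 219040556 neuronal UMIs and so weighed most in the reference of the other types.

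NP_Nts neurons, the itch-related type that expresses neurotensin, stood apart by Col18a1. It was at 26.3, 41.8, 47.2, 53.7 and 59.1 CPM in libraries 1 to 5, against a mean of at most 2.54 CPM in any other neuron type, and its range overlapped that of the endothelial cells. The log2 fold change was 6.24 ± 0.21 (adjusted p = 4.75e-12). It was found in 356 of 400 NP_Nts neurons, or 89.0%, against 18.1% of satellite glia and 3.22% of NP_Mrgprd neurons, whose median cell held 105150 UMIs. After thinning to 10000 UMIs it was found in 39.8% of NP_Nts neurons and 12.05% of satellite glia. In endothelial cells it was found in 64.3% at full depth and in 50% after thinning, more than in NP_Nts neurons at equal depth. Col10a1 (chr10:34389981-34397085), best known from the growth plate, was at 8.77, 10.9, 7.501, 8.43 and 9.76 CPM in NP_Nts neurons and had 0 UMIs in satellite glia and endothelial cells. Its pooled level in NP_Nts was at least 13.9-fold higher than in satellite glia, and the log2 fold change against the other neurons was 4.46 ± 0.27 (adjusted p = 2.43e-09). The next neuron types for Col10a1 were PEP1_Dcn (2.19 CPM) and PEP1_Slc7a3, and no library of NP_Nts fell to their values. Col5a3 was also called higher in NP_Nts (7.82 ± 2.97 CPM, 1.70 ± 0.30).

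Of the FACIT genes, 3 of 4 tested were called higher in NF_Calb1 (15% of all genes tested there) and 1 of 3 in NF_Pvalb (13.9%). It was 1 of 2 each in NF2 (7.75%) and PEP2 (9.08%). Over all neuron types 6 of 21 FACIT tests were called higher and 5 lower, beside 8.05% and 12.6% of tests over all genes. Col19a1 (chr1:24257683-24587922), a collagen known from muscle and from hippocampal interneurons, was at 10.0, 22.3, 15.3, 15.3 and 21.4 CPM in NF_Calb1 neurons, with a log2 fold change of 5.61 ± 0.26 (adjusted p = 9.52e-11). It was at 5.94 ± 2.93 CPM in NF2 neurons, where it was called (1.75 ± 0.44), and at 4.27 ± 3.31 CPM in NF_Pvalb neurons, where it was not (1.10 ± 0.52, adjusted p = 0.0744). The range of NF_Calb1 overlapped that of NF2, as library 1 of NF2 reached 10.8 CPM. NF2 had only 3 to 27 cells in a library, and 2 of its 5 libraries held at least 10. Col9a2 was called in NF_Calb1 (3.05 ± 1.82 CPM, 3.42 ± 0.50) and NF_Pvalb (3.87 ± 1.90 CPM, 3.31 ± 0.48) while its partner Col9a3 had 2 and 0 UMIs there. Col16a1 (9.28 ± 2.25 CPM, 1.96 ± 0.22), Col4a2 (5.17 ± 1.30 CPM, 2.69 ± 0.38), Col11a1 (7.55 ± 4.79 CPM, 1.53 ± 0.46) and Col24a1 (2.61 ± 0.98 CPM, 1.23 ± 0.33) were the others called higher in NF_Calb1. The call of Col11a1 was lost without library 1, 2, 4 or 5 (1.39 to 1.67) and under DESeq2 (1.39), that of Col24a1 without library 2, 3 or 4 (1.04 to 1.26) and that of Col19a1 in NF2 without library 5 (1.76). In NF2 neurons Col7a1, the anchoring fibril collagen of skin, was at 7.17, 4.33, 3.25, 3.96 and 4.18 CPM on 24 UMIs (3.28 ± 0.41, adjusted p = 4.95e-06). NF2 also had the highest neuronal level of Col23a1, at 3.58, 6.49, 19.5, 13.2 and 15.1 CPM (1.96 ± 0.28). The only member called higher in NP_Mrgprd was Col23a1 too, at 4.55 to 7.57 CPM (1.85 ± 0.26).

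PEP2 neurons had 6 members called higher, as many as NF_Calb1. Col11a1 was at 20.2, 14.8, 39.8, 15.9 and 22.1 CPM in libraries 1 to 5 of PEP2 (log2 fold change 4.25 ± 0.49, adjusted p = 3.89e-06). Col16a1 was at 18.6, 9.67, 18.1, 18.1 and 21.5 CPM (3.39 ± 0.28, adjusted p = 1.75e-07). Both ranges overlapped those of satellite glia. Col4a2 (5.08 ± 1.53 CPM, 2.79 ± 0.42), Col25a1 (8.69 ± 3.76 CPM, 2.42 ± 0.45), Col24a1 (4.15 ± 3.05 CPM, 2.25 ± 0.38) and Col6a2 (4.76 ± 1.59 CPM, 2.23 ± 0.33) were also called. Of the 206 PEP2 neurons 15 had at least 2 fibroblast markers. These 15 cells held 41 of 369 UMIs of Col11a1, 29 of 284 of Col16a1 and 34 of 163 of Col25a1. They also held 16 of 81 UMIs of Col6a2, 11 of 82 of Col24a1 and 5 of 88 of Col4a2. Of 2 members not called higher in PEP2, they held 14 of 35 UMIs of Col6a1 and 202 of 857 of Dcn. Fibroblast markers summed to 6.75 to 9.71 CPM over libraries in PEP2 with 6 of 7 detected. In fits without cells with fibroblast markers, 99 of 101 calls of members that were tested again over all comparisons were kept. The calls not kept were those of Dcn in satellite glia and in NF_Pvalb. The source of the PEP2 levels was not tested.

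Col24a1, a fibrillar chain with 0 UMIs in satellite glia and endothelial cells, was confined to neurons at this depth. It was called higher in NF_Calb1, NF_Pvalb (5.75, 5.93, 5.88, 2.49 and 5.79 CPM, 2.25 ± 0.37), PEP1_S100a11 (4.98, 4.18, 5.26, 4.16 and 5.27 CPM, 2.23 ± 0.35) and PEP2, and the ranges of these types overlapped. Its pooled level in NF_Pvalb was at least 7.81-fold higher than in satellite glia. PEP1_S100a11 neurons also had the highest neuronal mean of Col5a3, at 4.98, 16.7, 9.47, 10.2 and 8.17 CPM (2.35 ± 0.26, adjusted p = 3.43e-06). In the same type Apoe reached 0.677% of its glial level, the highest among neuron types. Col5a3 stood there at 9.90 CPM beside 68.9 CPM in satellite glia, and the part of free RNA in it was not tested.

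Of the type VI chains, Col6a2 was called higher in 4 neuron types. In PEP1_Slc7a3 neurons Col6a2 was at 3.39, 8.13, 13.4, 6.31 and 9.09 CPM in libraries 1 to 5 (log2 fold change 3.25 ± 0.34, adjusted p = 8.14e-07). It had 110 UMIs there while Col6a1 had 2. In PEP2 neurons the counts were 81 and 35, and in satellite glia 4 and 14. Col6a2 was called higher too in PEP3_Trpm8 (4.04 ± 3.06 CPM, 1.75 ± 0.50) and PEP1_Dcn (3.22 ± 2.00 CPM, 1.61 ± 0.40). Its ranges in these types overlapped, and library 1 of PEP1_Dcn, with 4 cells, had none. The call in PEP3_Trpm8 was lost without any 1 library (1.47 to 1.98) and that in PEP1_Dcn without library 2, 4 or 5 (1.46 to 1.69).

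PEP3_Trpm8 neurons, the cold-sensing type, held the second type IV pair, whose promoter sequence is shown above. Col4a3 (chr1:82586921-82722059) was at 6.01, 5.87, 3.06, 5.53 and 9.27 CPM and Col4a4 (chr1:82448419-82587034) at 3.004, 4.40, 6.12, 3.32 and 9.89 CPM in libraries 1 to 5. The log2 fold changes were 6.89 ± 0.51 (adjusted p = 1.46e-08) and 5.42 ± 0.46 (adjusted p = 7.97e-08). The counts behind them were small, 34 UMIs of Col4a3 in 26 of 168 cells and 32 of Col4a4 in 25, with both in 5 cells. Col4a3 did not exceed a mean of 0.370 CPM in any other neuron type and no library of PEP3_Trpm8 overlapped the next type. Col4a4 overlapped 1 other neuron type, PEP1_Dcn, through its library 1. Outside neurons, Col4a4 in satellite glia (3.72 CPM) and Col4a3 in endothelial cells (3 UMIs) overlapped the PEP3_Trpm8 values. Col4a5, the third chain of the trimer these genes form elsewhere, had 0 UMIs in PEP3_Trpm8 neurons. All 18 PEP3_Trpm8 UMIs of Fmod, which encodes fibromodulin, lay in 9 cells, and it was at 3.01 CPM with 4 UMIs in all other cells.

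PEP1_Dcn neurons are named for decorin, so the level of Dcn (chr10:97479500-97518163) in them is only a description. It was at 137, 524, 810, 804 and 416 CPM in libraries 1 to 5 and in 111 of 163 cells, with 22.9% of its 5002 UMIs in the top 5 cells. Among the other neuron types the mean ran from 0.347 CPM in NF2 to 50.1 CPM in PEP2. Dcn was found in 113 of 206 PEP2 neurons, with 35.5% of its UMIs in the top 5 cells. In NP_Mrgpra3 it was found in 66 of 104 cells, with 62.1% in the top 5. In some other types the level rested mostly on 1 or a few cells. In NP_Mrgprd 540 of 1066 UMIs were in 1 cell of library 3, in Th 268 of 302 were in 1 cell of library 2, and in PEP3_Trpm8 92.6% were in 5 cells. Cells with at least 2 fibroblast markers held 745 of the 1066 NP_Mrgprd UMIs and 269 of the 302 Th UMIs, but 4 of the 5002 in PEP1_Dcn. Beside Dcn, PEP1_Dcn neurons had the highest neuronal levels of Col25a1 and Col8a1. Col25a1 (chr3:130180358-130599884) was at 0, 19.3, 33.9, 20.9 and 21.7 CPM (3.96 ± 0.40, adjusted p = 1.24e-06) and Col8a1 at 3.42, 18.1, 22.8, 4.87 and 5.82 CPM (5.11 ± 0.53, adjusted p = 1.30e-06). The 0 of Col25a1 came from library 1 with its 4 cells. Col6a5, with 20 of its 38 UMIs in PEP1_Dcn, was too scarce to be tested.

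**Figure D4:**
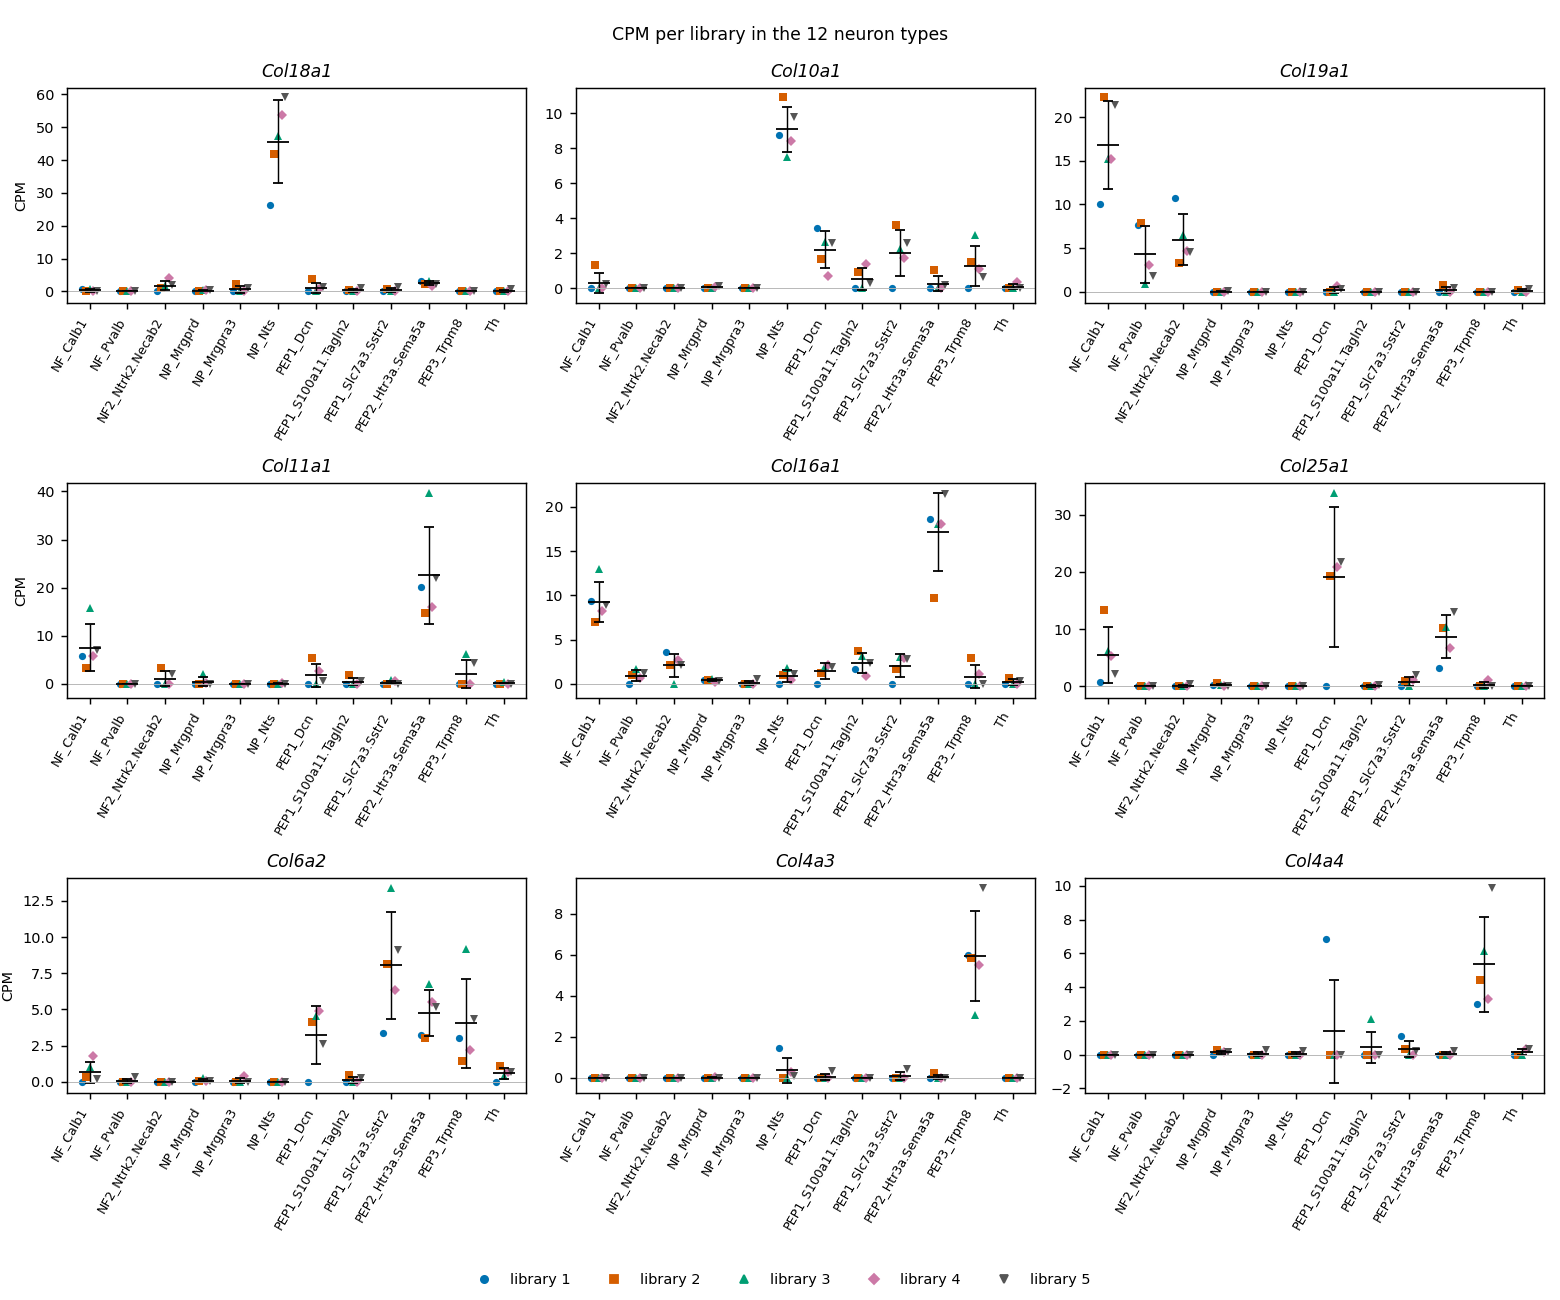
CPM of 9 genes in the 12 neuron types, with 1 point per library and black bars for the mean ± SD of the 5 libraries, each panel on its own linear axis. Col18a1 and Col10a1 peak in NP_Nts, Col19a1 in NF_Calb1, Col11a1 and Col16a1 in PEP2_Htr3a.Sema5a, Col25a1 in PEP1_Dcn, Col6a2 in PEP1_Slc7a3.Sstr2, and Col4a3 and Col4a4 in PEP3_Trpm8.

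Of the genes that process collagen, most of those tested were called higher in satellite glia. The list holds 33 genes, of which 32 had a row and 27 were tested against neurons, and 17 were called higher and 2 lower, beside 21.6% and 32.6% of all genes. The median log2 fold change was 1.75 over the list and -0.35 over all genes. Sparc (9.28 ± 0.32), a secreted collagen-binding protein, and the chaperones Fkbp10 (7.72 ± 0.33) and Serpinh1 (7.63 ± 0.23) led them. In endothelial cells against neurons 6 of 22 were higher, among them Sparc (8.44 ± 0.33) and Serpinh1 (7.72 ± 0.22), and 4 were lower, led by Pcolce2 (-4.72 ± 0.51), beside 14.9% and 43.9% of all genes. Endothelial cells against satellite glia gave 1 of 9 higher and 3 lower, beside 21.5% and 22.3% of all genes, with the prolyl hydroxylase P4ha3 at -5.63 ± 0.62 and the procollagen enhancer Pcolce at -2.65 ± 0.53. Basement membrane partners of type IV collagen followed, as 9 of 9 laminins and related genes tested were higher in satellite glia than in neurons, led by Nid1 (8.30 ± 0.29), Lama2 (7.44 ± 0.29) and Hspg2 (6.81 ± 0.36). In endothelial cells 7 of 8 were higher than in neurons, led by Lamc3 (8.15 ± 0.94) and Hspg2 (7.31 ± 0.40). Lamb2 was higher in endothelial cells than in satellite glia by 2.98 ± 0.29 and Nid1 was at -2.42 ± 0.44 on the log2 scale, with 2 higher and 2 lower of 6 tested. Of the collagen receptors 4 of 6 tested were higher in satellite glia than in neurons, among them Adgrg6 (8.96 ± 0.32), a receptor of Schwann cells that binds type IV collagen, Lair1 (7.33 ± 0.53) and Ddr2 (3.63 ± 0.32). In endothelial cells against neurons Adgrg1 was higher (1.73 ± 0.22) and Ddr1 lower (-2.23 ± 0.52), of 3 tested, and against satellite glia Adgrg1 was higher (1.06 ± 0.23) and Adgrg6 lower (-3.64 ± 0.45), of 3.

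Across the 12 neuron types these lists gave both directions. The processing genes gave 29 higher and 41 lower calls in 267 tests, the laminin list 10 and 24 in 61 tests, the receptors 3 and 3 in 47 tests and the other SLRPs 2 and 0 in 2 tests. Over all genes and the 12 types, 8.05% of tests were called higher and 12.6% lower. In PEP3_Trpm8 neurons, where Col4a3 and Col4a4 were called, the collagen chaperone Serpinh1 was higher by 4.08 ± 0.30 (adjusted p = 1.34e-08), P3h4 was higher by 3.28 ± 0.25 (adjusted p = 2.32e-08) and the procollagen protease Adamts3 was at -3.90 ± 0.88 (adjusted p = 0.00159). Of the laminin list, Lamb2 (-8.45 ± 1.91) and Lamb1 (-2.44 ± 0.54) were lower in PEP3_Trpm8 and Lamc1 (1.14 ± 0.33) was higher. In NP_Nts neurons Lamb2 was higher by 4.49 ± 0.28 (adjusted p = 2.49e-09) while Lamb1 (-4.53 ± 0.37) and Agrn (-4.31 ± 0.54) were lower. In PEP2 neurons the collagen receptors Ddr2 (4.07 ± 0.34) and Itga11 (2.52 ± 0.34) and the enzymes Loxl4 (3.55 ± 0.31) and Bmp1 (2.85 ± 0.38) were called higher and Adamts3 (-5.58 ± 0.71) lower. In PEP1_Dcn neurons Itga1, a collagen-binding integrin subunit, was higher by 5.35 ± 0.43 (adjusted p = 8.74e-08). The only other SLRPs called were Chad in NF_Pvalb (7.44 ± 0.82) and Podnl1 in PEP1_Slc7a3 (5.29 ± 0.46). Th neurons, with the lowest collagen sum, had the processing enzymes Adamts3 (3.56 ± 0.21), Colgalt2 (1.62 ± 0.15) and P3h4 (1.52 ± 0.23) higher than the other neurons. Lamb1 (-4.59 ± 0.41), Lamb2 (-3.80 ± 0.66), Lama4 (-2.76 ± 0.52) and Agrn (-2.08 ± 0.49) were lower in Th.

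The remaining genes were rare. Col2a1, Col8a2, Col11a2, Col17a1, Col26a1 and Col4a5 had from 6 to 17 UMIs in all cells, and the mean level of Col2a1, Col8a2, Col17a1, Col20a1 and Col26a1 stayed under 1 CPM in every type. Col6a4, with 35 of its 87 UMIs in 30 NP_Nts neurons, Col22a1 (43 UMIs) and Col20a1 (28 UMIs) had their highest mean in a neuron type but overlapped the next type. Col4a6, Col6a6, Col9a1 and Col21a1 were not analysed here.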

How the data were processed

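Single-cell libraries were prepared by the authors with the 10x Chromium 3′ kit, which counts transcript ends by UMI. Reads were processed with Cell Ranger 2.0.0 on mm10, and cells were filtered and clustered with Seurat 3.0.1 (500 to 15000 genes, at most 10% mitochondrial UMIs). The deposited table holds raw UMI counts per cell, with the authors' cell types in a second table. No doublet caller was run here. Rows that named no mouse gene (4 rows, 143 UMIs) were left out. Counts were summed per library and type and fitted with edgeR 4.0.16 (R 4.3.3) by glmQLFTest after filterByExpr and TMM. DESeq2 1.42.0, no filter, a minimum of 25% of cells, a replicate block, leaving out cells with markers of other types and leaving out each library were the alternatives. The fit was tested on simulated data at an adjusted p under 0.01. For satellite glia against neurons it recovered 17.3% of true log2 differences of 1 and 86.4% of those of 2. These shares were 3.06% and 55.9% for endothelial cells against neurons, and 18% and 92.7% for NP_Nts against other neurons. A difference that was not called can therefore still be present.

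The members and lists were chosen with earlier results of these data known. Values are given for members reaching a mean of 10 CPM in a type and for chosen chains of types I, III and IV and the SLRPs, and of the other lists for up to 3 called genes farthest from 0. Further members with a call were named after their values were seen. Each library holds all types of 1 mouse, and deviations of types of 1 library correlated by 0.00630 to 0.413. Intervals and floors (3 UMIs) cover counting error only. Promoter sequences were from RefSeq, and entries for Col4a3 and Dcn were not used here.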

Additional observations from a re-analysis of the deposited data

Results flagged for a closer look

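Groups of 5 library values of named members were picked by a mean of at least 10 CPM over the same values, or as a member's top type. A group could thus enter through 1 high value, so the usual 1 in 20 by chance does not apply. Of 50 such groups, 10 held a value whose gap to the others exceeded the 95% critical value of Dixon's test (0.71). In satellite glia these were Col1a1 at 28.88 CPM in library 5 (others 0 to 3.959), Col3a1 at 132.8 CPM in library 5 (others 10.29 to 29.38), Col4a1 at 107.7 CPM in library 2 (others 68.09 to 75.65), Col5a3 at 78.34 CPM in library 2 (others 65.56 to 68.64) and Lum at 87.09 CPM in library 4 (others 45.39 to 54.87). In endothelial cells they were Bgn at 138.6 CPM in library 5 (others 9.93 to 36.92) and Dcn at 775.4 CPM in library 3 (others 0 to 166.3). Among neurons they were Dcn at 98.33 CPM in library 3 of NP_Mrgprd (others 0.4152 to 13.5), Dcn at 60.87 CPM in library 2 of Th (others 0.4202 to 5.207) and Col16a1 at 9.668 CPM in library 2 of PEP2_Htr3a.Sema5a (others 18.1 to 21.49). The Dcn values of NP_Mrgprd, Th and endothelial cells each came mostly from 1 cell, with 540, 268 and 210 UMIs.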

How the results depend on the processing

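The count of members higher in satellite glia than in neurons was 25 and ran from 23 to 26 without 1 library, and it was 14 when a gene had to be found in at least 25% of glia. The members lower there were 0, and 1 without cells with fibroblast markers (Dcn, whose log2 fold change of 2.28 turned to -3.85), with 0 to 1 on leaving out a library (Col10a1 without library 1). In endothelial cells against neurons the 6 higher became 15 with no filter on low counts, 3 without cells with mural markers and 7 without any 1 library. Against satellite glia the 3 higher became 5 and the 7 lower became 14 with no filter, and ran from 2 to 4 and from 7 to 9 without 1 library. The 30 pairs of member and neuron type became 16 under the 25% minimum and ran from 25 to 31 without 1 library. The 35 pairs called lower became 0 under the 25% minimum, 65 with no filter and 64 with all other cells as the reference, and ran from 29 to 54 without 1 library. DESeq2 gave 26, 7, 3, 7, 31 and 36 for these 6 counts of calls, and the replicate block gave 27, 7, 3, 7, 32 and 42 and ended none of the 106 calls of members.

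Of those 106 calls, 15 were lost in a fit without some library. These were 6 of the 71 described with values, namely Dcn in satellite glia, Col11a1 and Col24a1 in NF_Calb1, Col19a1 in NF2 and Col6a2 in PEP1_Dcn and in PEP3_Trpm8, and 9 of the 35 lower calls in neuron types. DESeq2 lost 4, which were Dcn in satellite glia (2.40) and NF_Pvalb (-1.59) and Col11a1 in NF_Calb1 (1.39) and NP_Mrgprd (-3.18). Both Dcn calls were also lost without cells with mural markers (1.49 and -1.56). With all other cells as the reference 26 pairs of member and neuron type were called higher. Bgn was called lower in endothelial cells than in satellite glia without library 5 (-1.19). The causes were not tested. Thinning to 10000 UMIs moved 20 of 29 shares of cells by over 1 SD, and the changes of all 29 ran from -39.45 to -0.80 points. The median over all genes shifted from -1.25 to -1.05 under DESeq2 in endothelial cells against neurons and from -0.05 to -0.17 against satellite glia. With 56 endothelial cells and 16889 UMIs in the median cell, a gene with no UMI could still be at up to 3.19 CPM there.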
